A study of Homo sapiens with 20 samples.

Results

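The NME1-wild-type line was compared with the WM793 line it was made from (Parent) over every row of a human exon array. The comparison is between 8 of the 20 arrays of the study, 4 of each line, which were taken by their titles. All 20 arrays were used to estimate the spread between arrays on which the calls of change rest. WM793 is an established cell line from a melanoma in vertical growth phase, and NME1-wild-type is WM793 that overexpresses NME1 of normal sequence. A further 3 lines carry NME1 with the amino acid change of their name (NME1-E5A, NME1-K12Q and NME1-P96S), also with 4 arrays each. All 5 lines were grown in the same medium for 3 days, and total RNA was hybridised. No source used here gave the vector, the promoter of the transgene or the clonality of the lines. The design describes the 4 arrays of a line as technical replicates, and there was only 1 line per construct. The p-values therefore cover only the spread between arrays of the same lines, and an effect of the construct and a property of that 1 line cannot be told apart.

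NME1 is a nucleoside diphosphate kinase, an enzyme that passes phosphate between nucleotides. It is known as a metastasis suppressor because its level was found to be low in melanoma lines that spread readily, and forced expression lowers invasion and spread in animal models without stopping growth. The question of this comparison is which transcripts differ once wild-type NME1 is added to a line in vertical growth phase.

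Few transcripts differed. Of the 18384 features tested (a gene symbol, or a row that the annotation gives to several genes or to none), 6 changed and all 6 were higher in NME1-wild-type. They were TRIML2, NETO2, ALDOC and 3 rows of the cancer-testis antigen XAGE1, at log2 differences from 0.79 to 1.35, where 1 is a doubling. A feature was called changed at an adjusted p under 0.05 (limma, Benjamini-Hochberg over all features) and a fold of at least 1.5. The limma fit took the spread between arrays from all 20 arrays of the 5 lines. When only the 8 arrays were fitted, TRIML2 alone was still called. The 6 are 0.0326% of the features tested, and 0 were lower. The plot of differences against p shows how few points leave the main cloud, and that those which do lie on the higher side.

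**Figure D1:**
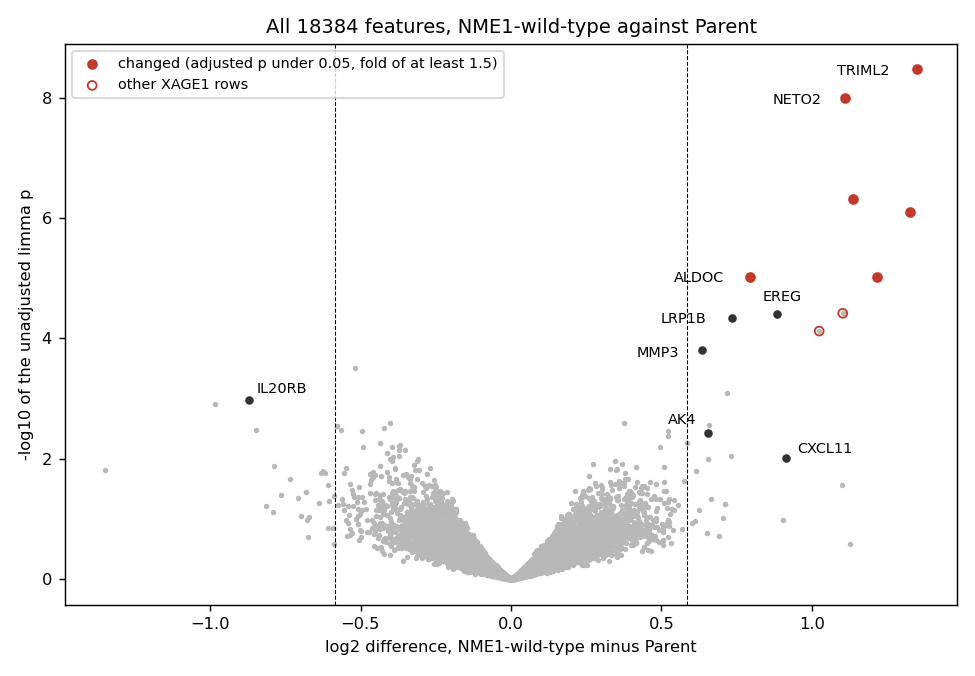
Each point is 1 of 18384 features; the horizontal axis is the log2 difference of NME1-wild-type from Parent, the vertical axis is -log10 of the unadjusted limma p, and dashed lines mark a fold of 1.5 in each direction. The 6 changed features (filled red) are all on the right, with TRIML2 and NETO2 highest, the 2 XAGE1 rows that did not pass are open circles, and IL20RB is labelled on the lower side.

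Across all features the log2 difference had a median of -0.03, and its 5th and 95th percentiles were -0.25 and 0.26. The median standard error was 0.181, which gives a median 95% confidence interval of 0.38 to each side. For 12492 features (68.0%) that interval lay within a 1.5-fold change in both directions, and for 18083 (98.4%) within a 2-fold change. For most genes a 2-fold change in either direction was thus outside the interval, while a change under 1.5-fold often could not be told from none. An unadjusted p under 0.05 was reached by 253 features (1.38%), 116 of them higher (0.631%) and 137 lower (0.745%). In 152 features (0.827%) the 4 arrays of a line did not overlap with the 4 of the other, with NME1-wild-type higher in 65 (0.354%) and lower in 87 (0.473%).

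The arrays of NME1-wild-type resembled each other more than those of Parent. Pairs of NME1-wild-type arrays correlated across rows at r from 0.983 to 0.995, with a median of 0.986. Replicates 1 and 2 of that line correlated at 0.992 and replicates 3 and 4 at 0.995, and its other pairs at 0.983 to 0.987. Pairs that joined an NME1-wild-type array with a Parent array correlated at 0.951 to 0.992, also with a median of 0.986. The NME1-wild-type arrays were thus no closer to each other than to most Parent arrays. Pairs of Parent arrays correlated at 0.925 to 0.987, and at 0.982 to 0.987 without Parent replicate 2. That array had the narrowest spread of values of all 20 (interquartile range 2.19). It was the highest Parent array in 53.1% of all features and the lowest in 29.0%, and 57 of the 109 named features, 0 of the 6 changed among them, moved by more than 1.5 times when it was left out. In what follows a bare value in brackets after a log2 difference or a median is the same quantity without Parent replicate 2. In limma 0 of the 7 melanoma and melanocyte markers with a row of their own passed, with 0 at an unadjusted p under 0.05. SOX10, a transcription factor of neural crest and melanocytes, averaged 9.34 in Parent and 9.36 in NME1-wild-type, and the glial and melanocyte protein gene S100B 8.59 and 8.61. MLANA, a melanosome antigen, was among the low values in both lines, at 3.67 and 3.64. The pigment enzyme gene TYRP1 was the highest of the list at 0.26 (0.47) and the melanosome matrix gene PMEL the lowest at -0.23 (-0.039). The pan-leukocyte gene PTPRC averaged 3.34 and 3.27. The files hold no detection calls, so a low value cannot be read as absence.

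The row of NME1 was read as a check of the labels, and the check was weak. It is annotated to NME1 and to the NME1-NME2 readthrough transcript (row 3726934). Parent replicates 1 to 4 gave 9.37, 9.40, 9.74 and 9.59, and NME1-wild-type replicates 1 to 4 gave 9.81, 9.86, 9.83 and 9.75. The NME1-wild-type arrays lay close together above the 4 Parent arrays, although the lowest of them only just passed the highest Parent array. The log2 difference was 0.28 (95% confidence interval 0.03 to 0.53), a fold of 1.22. It did not pass in limma (adjusted p = 0.997), while an exact permutation test (two-sided, over the 8 arrays) gave p = 0.0286, the smallest p that 70 splits allow. Paired by replicate number, the exact sign-flip test gave p = 0.125, also the smallest possible. The row averaged 9.81 in NME1-wild-type and 9.78, 9.75 and 9.78 in NME1-E5A, NME1-K12Q and NME1-P96S. It therefore does not tell NME1-wild-type from the mutant lines. Whether the probes of this row lie in the overexpressed coding sequence was not examined.

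The other NME genes encode relatives of the kinase, of which NME2 is the closest. The row of NME2 and the readthrough transcript (row 3726960) gave 10.19, 10.42, 10.46 and 10.57 on the Parent arrays and 10.71, 10.66, 10.46 and 10.54 on the NME1-wild-type arrays. These overlapped, with Parent replicate 1 the lowest of all, and the difference of 0.18 did not pass (limma adjusted p = 0.997). Of the 6 NME genes with a row of their own 0 passed, and 0 had an unadjusted limma p under 0.05. NME4, the mitochondrial member, differed by 0.06 (0.12) and NME3 by -0.06 (0.019), and both turned sign under other processing. NME9, one of the members that also hold a thioredoxin-like domain, differed by -0.15 (-0.026). NME7 had no row under its name.

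**Figure D2:**
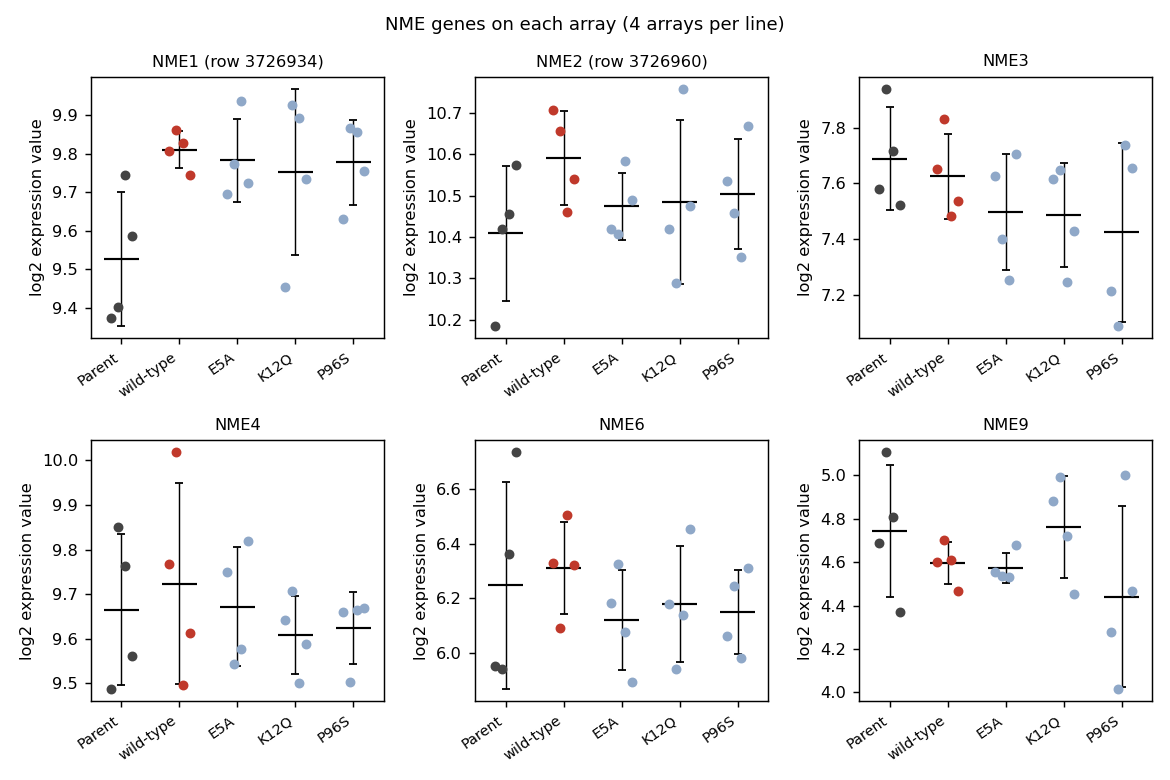
Log2 expression values (vertical axes) of the NME genes by line (horizontal axes); each dot is 1 array, the horizontal bar is the mean and the error bar the SD of 4 arrays, and the vertical axes do not start at 0. For NME1 the 4 NME1-wild-type arrays (9.75 to 9.86) sit above the Parent arrays, and for the other genes the dots of both lines overlap.

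TRIML2 had the smallest p of all features. It belongs to the tripartite motif-like genes, which share the SPRY-type domain of the TRIM ubiquitin ligases, and has been described as a p53-responsive gene. Parent replicates 1 to 4 gave 6.34, 6.45, 6.53 and 6.60, and NME1-wild-type replicates 1 to 4 gave 8.20, 7.84, 7.68 and 7.61. Every NME1-wild-type array was more than 1 log2 unit above every Parent array of this gene. TRIML2 rose by 1.35 (SE 0.134, 95% confidence interval 1.07 to 1.63), which is 2.55-fold (limma adjusted p = 6.3e-05). It passed in the 30 alternative settings that kept the test against no change, with differences from 1.23 to 1.42 when 1 array was left out. Tested with limma's treat against a fold of 1.5, in place of no change, neither TRIML2 nor any other feature passed.

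TRIML2 moved without its neighbours in family and list. TRIML1, which was named after its values were seen, differed by -0.10. Of the 14 related TRIM genes measured, 1 rose (TRIML2), 12 had negative differences and the median was -0.09 (-0.06), beside -0.03 over all features. TRIM68 was the lowest, at -0.38. Of 22 p53 target genes, 1 rose (again TRIML2), 13 had positive differences and the median was 0.05, which became -0.01 without Parent replicate 2. The pro-apoptotic p53 target BBC3 was lowest at -0.19, and it turned sign without that array.

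NETO2 encodes an auxiliary subunit of kainate receptors, a class of glutamate-gated ion channels of neurons, and is expressed in several tumour types. The Parent arrays gave 5.54, 5.68, 5.59 and 5.59, and the NME1-wild-type arrays gave 6.62, 6.47, 6.79 and 6.96. The Parent arrays were nearly level, and the lowest NME1-wild-type array lay well above them. NETO2 rose by 1.11 (SE 0.118, 95% confidence interval 0.86 to 1.36), or 2.16-fold (limma adjusted p = 9.43e-05). Apart from treat, it was lost in 1 of 30 alternative settings, the fit of only the 8 arrays (limma adjusted p = 0.0503).

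The other genes of the kainate receptor complex did not move with it. Of the 7 measured, 1 rose (NETO2) and the other 6 had negative differences that did not pass. The subunit genes GRIK1 and GRIK3 differed by -0.18 (-0.10) and -0.21 (-0.026), GRIK2 by -0.04 (-0.22), GRIK4 by -0.19 (0.072) and GRIK5 by -0.08 (0.16), and the second auxiliary subunit, NETO1, by -0.13 (0.014). The median of the 7 was -0.13 (0.014), and -0.07 with quantile normalization. NETO2 also stands in a list of 9 genes that earlier work named as repressed by NME1 in a different cell line. In NME1-wild-type 1 of the 9 rose (NETO2) and 0 fell, and the median was -0.01 (-0.10). The growth factor receptor gene MET, the growth factor gene PTN and the matricellular gene CCN2 each differed by 0.23, which for CCN2 was 0.049 without Parent replicate 2. The adhesion gene L1CAM differed by -0.01 (-0.10), the lysophosphatidic acid receptor gene LPAR1 by -0.05 (-0.13), the Wnt receptor gene FZD1 by -0.06 (-0.14), the gelatinase gene MMP2 by -0.09 and the hedgehog signal transducer gene SMO by -0.13, none past the threshold.

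ALDOC encodes the aldolase isoform of brain, an enzyme of glycolysis. The Parent arrays gave 6.07, 6.44, 6.07 and 5.96, and the NME1-wild-type arrays gave 7.28, 6.81, 6.73 and 6.89. Parent replicate 2 was the highest Parent array and still below the lowest NME1-wild-type array. ALDOC rose by 0.79 (95% confidence interval 0.51 to 1.07), or 1.73-fold (limma adjusted p = 0.0292). This call was close to the threshold and was lost in 13 of 30 settings, among them the fit of only the 8 arrays and the omission of Parent replicate 1, 3 or 4 or of NME1-wild-type replicate 1, 2 or 4. The difference stayed between 0.68 and 0.90 when 1 array was left out.

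The other enzymes of glycolysis did not pass the threshold. Of 21 measured, 1 rose (ALDOC) and 17 had positive differences, where 41.1% of all features did, at a median of 0.10 (0.07), or 0.013 with quantile normalization. The kinase gene PGK1 differed by 0.45 and PDK1, which holds back pyruvate dehydrogenase, by 0.44, both named after their values were seen and neither past the threshold. ALDOA, the widely expressed aldolase, differed by 0.02 and was also named after its value was seen. PFKM, the muscle form of phosphofructokinase, was lowest at -0.15. Of 21 further hypoxia response genes 0 passed (3 at an unadjusted limma p under 0.05) and 14 were positive, at a median of 0.05 (0.05). The stress-responsive gene NDRG1 was the lowest at -0.13, and AK4, a mitochondrial adenylate kinase, was the highest. Its Parent arrays gave 7.59, 6.54, 7.48 and 7.80 and its NME1-wild-type arrays 8.11, 7.93, 7.98 and 8.02. The groups did not overlap, Parent replicate 2 lay well below the other Parent arrays, and the difference of 0.66 (0.39) did not pass (limma adjusted p = 0.997).

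**Figure D3:**
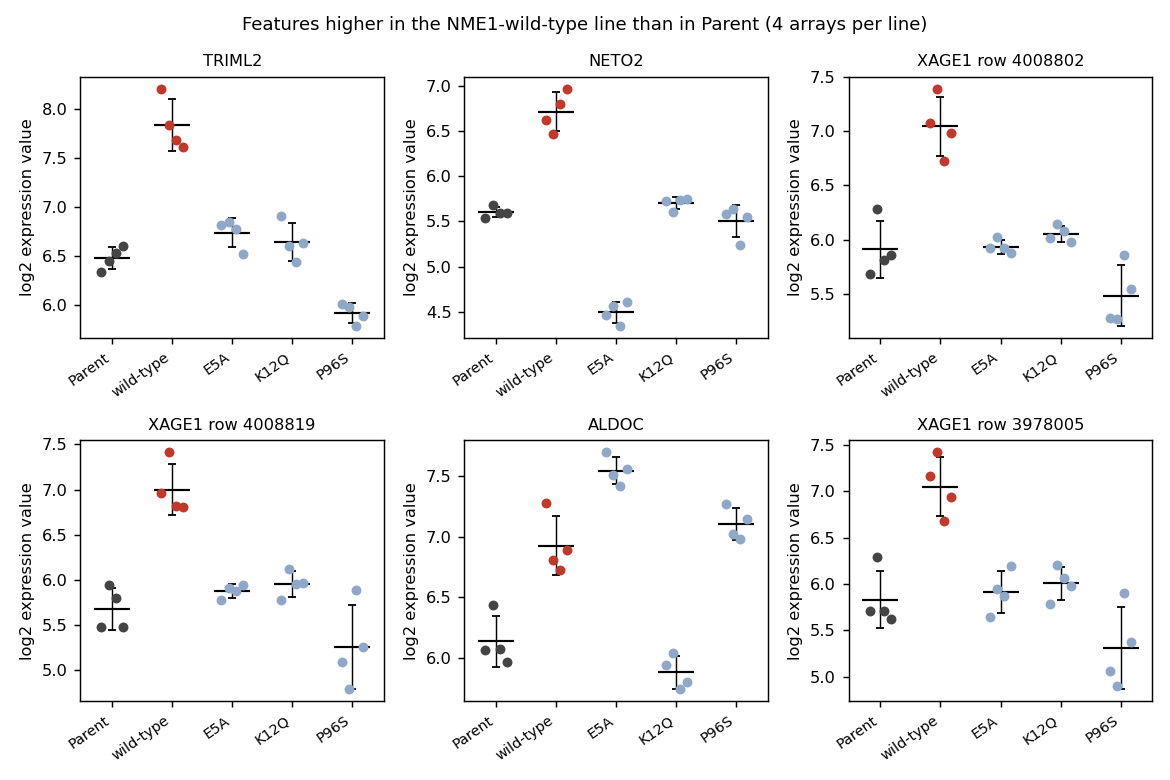
Log2 expression values (vertical axes) of the 6 changed features by line (horizontal axes); each dot is 1 array, the horizontal bar is the mean and the error bar the SD of 4 arrays, and the vertical axes do not start at 0. All 4 NME1-wild-type arrays (red) lie above all 4 Parent arrays (dark) in each panel, and ALDOC is also high in NME1-E5A and NME1-P96S.

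XAGE1 genes lie in near-identical copies on the X chromosome. They encode small cancer-testis antigens, proteins largely limited to testis in healthy tissue and switched on in some tumours. The annotation gives 5 rows of the array to XAGE1A, XAGE1B, XAGE1C and XAGE1D together, so no row can be assigned to 1 copy. These rows fall outside the single-symbol part of the naming rule, and the 2 that did not pass are named because their values were seen. They are separate rows for near-identical genes, so they are not independent measurements.

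All 5 XAGE1 rows were higher in NME1-wild-type, by 1.02 to 1.33, and all 4 NME1-wild-type arrays lay above all 4 Parent arrays in each. Row 4008819 gave 5.48, 5.94, 5.79 and 5.48 on the Parent arrays and 6.96, 7.41, 6.82 and 6.80 on the NME1-wild-type arrays, a rise of 1.33 (limma adjusted p = 0.0036). Row 4008802 gave 5.68, 6.29, 5.81 and 5.86 against 7.08, 7.39, 6.73 and 6.98, a rise of 1.14 (limma adjusted p = 0.00301). Replicate 2 was the highest array of both lines in these rows. Row 3978005 gave 5.71, 6.29, 5.71 and 5.62 against 7.16, 7.42, 6.67 and 6.94, a rise of 1.22 (limma adjusted p = 0.0292) that no longer passed with the replicate number as a block (adjusted p = 0.0718). This call was lost in 12 of 30 settings, among them the omission of Parent replicate 1, 3 or 4 or of NME1-wild-type replicate 1, 2 or 4. Apart from treat, rows 4008802 and 4008819 missed the threshold in 1 of 30 settings, the fit of the 8 arrays alone.

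Rows 4008710 and 3977862 differed by 1.10 (limma adjusted p = 0.0892) and 1.02 (limma adjusted p = 0.139). Without Parent replicate 2 both passed in limma. On that array row 3977862 stood at 7.05, against 6.12 to 6.43 on the other Parent arrays and 7.18 to 7.86 on the NME1-wild-type arrays.

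Other cancer-testis antigens did not share this rise. The remaining 47 rows that are annotated to several cancer-testis genes included 12 with a positive difference, at a median of -0.08 and a highest value of 0.32. Of 13 such genes with a row of their own, 0 passed (1 at an unadjusted limma p under 0.05) and 2 were positive, MAGEA1 at 0.58 and MAGEA10, which was named after its value was seen, at 0.13. XAGE3, a relative of XAGE1, was lowest at -0.36 (-0.074). The median of the 13 was -0.17 (0.08). MAGEA1 gave 5.07, 5.97, 5.07 and 4.88 on the Parent arrays and 5.95, 6.02, 5.70 and 5.65 on the NME1-wild-type arrays, so Parent replicate 2 alone reached the range of the other line. Without it MAGEA1 passed.

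The 250 bases before the start of the changed genes are shown because these features were called higher in the same comparison. The XAGE1 copies are included because their starts cannot be told apart. Sequences are those of RefSeq (assembly GRCh38.p14), the first listed start of each gene, 5′ to 3′ on the strand of the gene. Capitals mark matches to ACGTG on either strand (CACGT on the other), the core that hypoxia-inducible factors and some other helix-loop-helix factors can bind. TRIML2 lies at chr4:188109604-188109853 (minus strand), NETO2 at chr16:47143946-47144195 (minus), ALDOC at chr17:28576896-28577145 (minus) and XAGE1A at chrX:52495627-52495876 (plus).
TRIML2: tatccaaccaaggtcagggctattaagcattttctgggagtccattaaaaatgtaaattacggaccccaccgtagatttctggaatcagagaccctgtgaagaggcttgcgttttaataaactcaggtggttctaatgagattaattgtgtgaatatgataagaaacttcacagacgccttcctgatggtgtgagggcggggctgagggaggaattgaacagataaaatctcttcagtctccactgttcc
NETO2: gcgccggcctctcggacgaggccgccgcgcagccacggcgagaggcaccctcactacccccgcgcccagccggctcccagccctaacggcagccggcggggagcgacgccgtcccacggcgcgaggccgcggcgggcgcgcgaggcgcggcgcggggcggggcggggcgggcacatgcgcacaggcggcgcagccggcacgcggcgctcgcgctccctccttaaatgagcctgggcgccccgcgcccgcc
ALDOC: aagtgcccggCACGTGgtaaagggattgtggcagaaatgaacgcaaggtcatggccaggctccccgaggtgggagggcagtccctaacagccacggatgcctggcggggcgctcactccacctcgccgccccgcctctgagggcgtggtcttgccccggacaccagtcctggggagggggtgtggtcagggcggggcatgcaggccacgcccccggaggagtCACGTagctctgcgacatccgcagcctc
XAGE1A: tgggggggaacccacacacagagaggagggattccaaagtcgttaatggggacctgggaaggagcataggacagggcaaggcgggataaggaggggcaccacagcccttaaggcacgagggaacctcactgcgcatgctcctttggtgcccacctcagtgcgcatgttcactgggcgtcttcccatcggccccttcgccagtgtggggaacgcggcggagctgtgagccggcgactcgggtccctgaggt
The window of XAGE1B, at chrX:52517013-52517262 (minus), is identical to that of XAGE1A at 250 of 250 bases. ALDOC held 3 matches, with CACGTG counted on both strands, and the windows of TRIML2, NETO2 and XAGE1A held 0. Of 27305 genes, 18.7% had at least 1 match in this window. A search of both strands for the AP-1 site TGACTCA found 0 matches in the 4 windows, and 4.16% of all windows held one. The window of NETO2 was rich in G and C (82.4%, with 47 CpG pairs), that of TRIML2 was not (43.2%, with 5), and the medians over all windows were 58.0% and 11. A match is a description of the letters and not of binding.

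EREG and LRP1B lay just short of the threshold, and MMP3 had the next smallest p among single genes higher by at least 1.5-fold. EREG encodes epiregulin, a growth factor that activates the epidermal growth factor receptor. The Parent arrays gave 7.31, 7.13, 6.86 and 6.92 and the NME1-wild-type arrays 8.05, 8.25, 7.67 and 7.79, without overlap, a difference of 0.88 (limma adjusted p = 0.0892). LRP1B, a large receptor of the low-density lipoprotein receptor family that is often inactivated in cancers, gave 3.75, 4.10, 3.88 and 3.45 against 4.51, 4.60, 4.60 and 4.41, a difference of 0.74 (limma adjusted p = 0.0934). Both had arrays that did not overlap, and LRP1B stood at low values in both lines. Without Parent replicate 2 LRP1B passed, and without NME1-P96S replicate 3 both genes did. The stromelysin gene MMP3, a matrix protease, gave 5.94, 5.94, 5.85 and 5.73 against 6.80, 6.46, 6.33 and 6.40, a difference of 0.64 (limma adjusted p = 0.257). With the replicate number as a block MMP3 passed (limma adjusted p = 0.0445), and it was higher in all 4 pairs. The lists around these genes were near Parent. Of 23 genes of MAPK pathway output 0 passed (1 at an unadjusted limma p under 0.05), at a median of 0.03 (0.0055) with the feedback inhibitor SPRY1 lowest at -0.18. Of 28 matrix proteases and inhibitors 0 passed (1 at an unadjusted limma p under 0.05), at a median of -0.06 (0.04), with ADAMTS1 lowest at -0.23.

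The remaining higher genes of at least 1.5-fold that the rule names varied more between arrays. The rule names 10 unchanged genes in each direction, so some of the 18 single genes higher by that fold are not shown. CXCL11, a chemokine of T cells induced by interferon, gave 6.17, 6.22, 6.12 and 6.34 on the Parent arrays and 7.79, 7.68, 6.61 and 6.43 on the NME1-wild-type arrays. The groups did not overlap, but NME1-wild-type replicates 1 and 2 carried most of the difference of 0.92 (limma adjusted p = 0.997). ARLN gave 7.02, 6.21, 8.23 and 8.55 against 8.71, 8.67, 8.98 and 8.05, a difference of 1.10 (0.67) within overlapping groups. The histone gene H2BC4 differed by 0.73, the splicing factor gene LSM3 by 0.67 (0.41), the ribosomal protein gene RPL23A by 0.66 and the tetraspanin-like gene TM4SF18 by 0.62 (0.38), all with overlapping arrays. None passed (limma adjusted p = 0.997 for each).

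No feature was called lower, and the largest decreases lay at low values. IL20RB, a subunit of receptors for interleukins of the IL-20 group, had the smallest p among single genes lower by at least 1.5-fold. The Parent arrays gave 4.10, 4.51, 3.60 and 3.89 and the NME1-wild-type arrays 3.15, 2.89, 3.26 and 3.31. All 4 NME1-wild-type arrays lay below the Parent arrays, and the difference of -0.87 did not pass (limma adjusted p = 0.997). Of the 10 lower genes that the rule names, 5 encode olfactory or taste receptors (OR3A2, OR51I2, OR52R1, TAS2R20 and TAS2R50, at -0.63 to -0.79), of which OR3A2 was at -0.33 and OR52R1 at -0.40 without Parent replicate 2. The others were GPR31 (-0.81), DENND11 (-0.62), C9orf163 (-0.61) and CACNG2 (-0.59, and -0.31 without that array). Of the 25 features (0.136% of those tested) lower by at least 1.5-fold, 23 (92.0%) had a mean under 5, against 25.7% of all features. Parent replicate 2 was the highest Parent array in 16 of the 25 (64.0%), against 53.1% of all features. Of the 30 features (0.163%) higher by at least 1.5-fold, 3 had a mean under 5. The part of array spread in these decreases was not tested beyond the settings of the closing section.

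The comparison was also read against the mutant lines, which share the Parent arrays, so their differences from Parent are given side by side. The features named in it were chosen as higher on the NME1-wild-type arrays, which the direct comparisons with the mutants use again. The p-values of those direct comparisons are therefore not independent of that choice. TRIML2 differed from Parent by 0.26 in NME1-E5A, 0.17 in NME1-K12Q and -0.56 in NME1-P96S, and did not pass in any of the 3. Set directly against each mutant, TRIML2 was higher in NME1-wild-type by 1.09, 1.18 and 1.91 (limma adjusted p = 0.000383, 0.000442 and 1.49e-07). NETO2 fell by 1.11 in NME1-E5A (limma adjusted p = 6.8e-05) and differed by 0.10 in NME1-K12Q and -0.10 in NME1-P96S. NME1-wild-type was thus higher than NME1-E5A by 2.22, than NME1-K12Q by 1.01 and than NME1-P96S by 1.21 (limma adjusted p = 9.26e-10, 0.000442 and 1.53e-05).

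The XAGE1 rows were near Parent in 2 mutants and below it in the third. The 5 rows differed by -0.08 to 0.20 in NME1-E5A, by 0.01 to 0.28 in NME1-K12Q and by -0.53 to -0.42 in NME1-P96S, with 0 passing. Rows 4008802 and 4008819 were higher in NME1-wild-type than in each mutant (limma adjusted p up to 0.0494), and row 3978005 than in NME1-E5A and NME1-P96S but not past the threshold against NME1-K12Q (limma adjusted p = 0.117). ALDOC had another pattern. It rose by 1.41 in NME1-E5A and by 0.97 in NME1-P96S (limma adjusted p = 1.43e-05 and 0.00348) and differed by -0.26 in NME1-K12Q. NME1-wild-type was higher than NME1-K12Q by 1.05 (limma adjusted p = 0.000915). It did not differ past the threshold from NME1-E5A (-0.62, limma adjusted p = 0.077) or from NME1-P96S (-0.18, limma adjusted p = 0.999).

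EREG, LRP1B, MMP3 and CXCL11 also split the lines. EREG fell by 1.08 in NME1-E5A (limma adjusted p = 0.00354), differed by -0.83 in NME1-P96S and by 0.53 in NME1-K12Q, and was higher in NME1-wild-type than in NME1-E5A by 1.96 and than in NME1-P96S by 1.71 (limma adjusted p = 2.28e-06 and 1.53e-05). Its difference of 0.35 from NME1-K12Q did not pass. MMP3 differed from Parent by -0.62, 0.80 and -0.11 in NME1-E5A, NME1-K12Q and NME1-P96S, and was higher in NME1-wild-type than in NME1-E5A by 1.25 and than in NME1-P96S by 0.75 (limma adjusted p = 8.85e-05 and 0.0205), and its difference of -0.16 from NME1-K12Q did not pass. LRP1B differed from Parent by -0.07 and -0.18 in NME1-E5A and NME1-P96S, and was higher in NME1-wild-type by 0.81 and 0.91 (limma adjusted p = 0.0138 and 0.00372), while its difference of 0.74 from NME1-K12Q did not pass (limma adjusted p = 0.0998). CXCL11 differed by -1.58 in NME1-K12Q, and NME1-wild-type stood 2.49 above that line and 1.55 above NME1-P96S (limma adjusted p = 0.000915 and 0.047), and its difference of 1.13 from NME1-E5A did not pass. As a background for these calls, NME1-wild-type was higher than NME1-E5A in 0.103% of the features and lower in 0.103%. It was higher than NME1-K12Q in 0.0326% and lower in 0.00544%, and higher than NME1-P96S in 0.131% and lower in 0.0707%. Against Parent, 0.141% of the features were higher and 0.0762% lower in NME1-E5A, 0.00544% and 0% in NME1-K12Q, and 0.049% and 0.0544% in NME1-P96S.

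**Figure D4:**
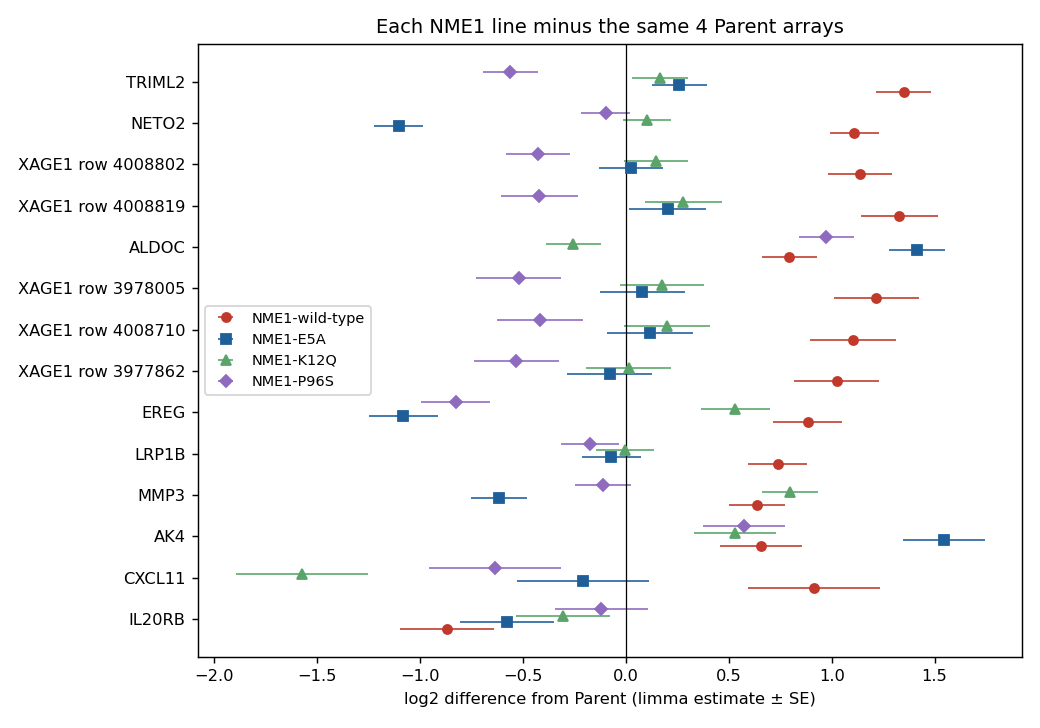
Log2 difference of each NME1 line from the same 4 Parent arrays (horizontal axis, limma estimate ± SE) for the changed features, the other XAGE1 rows and named genes that did not pass in NME1-wild-type (vertical axis). TRIML2, NETO2 and the XAGE1 rows are high in NME1-wild-type alone among the 4 lines drawn, ALDOC is high in 3 lines, and EREG lies on opposite sides of 0.

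The gene lists describe the processes around melanoma spread. There were 37 lists, and 5 of them held a changed member, which was TRIML2, NETO2 or ALDOC each time. In 23 of the 37 the median changed sign without Parent replicate 2, 9 from positive to negative and 14 from negative to positive. Over all features 41.1% of the differences were positive and the median was -0.03, or 0.02 without Parent replicate 2.

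With quantile normalization the sign of the median also turned for reported partner proteins (-0.04), integrins and focal adhesion (-0.07), extracellular matrix (-0.05), matrix proteases (0.01), MAPK output (-0.02), melanoma markers (0.05), interferon response (0.06) and cytokines (0.01).

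The lists of cell cycle, nucleotide metabolism, ribosomal protein and NRF2 target genes had medians from 0.11 to 0.14. Other lists of metabolism lay lower, with glycolysis at 0.10, cholesterol synthesis at -0.01 and unfolded protein and amino acid stress at -0.03. The counts of positive differences that follow include Parent replicate 2, and the share over all features was 41.1%. Without that array the median over all features moved from -0.03 to 0.02. Of 28 cell cycle genes 0 passed (1 at an unadjusted limma p under 0.05) and 25 were positive, at a median of 0.12 (0.04), with the mitotic kinase gene CDK1 highest at 0.43 and the replication licensing gene MCM2 lowest at -0.15. Of 29 nucleotide metabolism genes 0 passed (1 at an unadjusted limma p under 0.05) and 24 were positive, at 0.12 (0.03), with the guanine nucleotide enzyme gene IMPDH1 lowest at -0.09 (-0.048). The ribosomal protein genes had 15 positive of 16, at 0.14 (0.11), from RPL7 at 0.41 (0.11) to RPL13 at -0.02 (0.044). With quantile normalization the ribosomal median was 0.026, the cell cycle median 0.07 and the nucleotide median 0.10. The antioxidant targets of NRF2 had 11 positive of 12, at 0.11 (0.07), or 0.12 with quantile normalization. SLC7A11, which encodes the cystine transporter, was highest of these at 0.47 (0.24) and OSGIN1 lowest at -0.16 (0.060). In limma 0 members of these 4 lists passed, with 1 at an unadjusted p under 0.05 among the NRF2 targets and 0 among the ribosomal protein genes.

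Lists of invasion, adhesion, motility and extracellular matrix had medians from 0.01 to 0.15, while that of matrix proteases and inhibitors, given above, was -0.06. Of 21 genes of the invasive melanoma state 0 passed (1 at an unadjusted limma p under 0.05) and 17 were positive, at 0.12 (0.0044), or 0.02 with quantile normalization. TEAD1, a transcription factor of the Hippo pathway, was highest at 0.40. NGFR, a receptor of neural crest-like melanoma cells, was lowest at -0.37 (-0.22), with all 4 NME1-wild-type arrays below the Parent arrays. Cadherin and mesenchymal transition genes had a median of 0.15 (-0.02) over 14, or 0.02 with quantile normalization, from CDH19 at 0.32 (0.012) to CDH1, the epithelial cadherin, at -0.16 (-0.040). Motility and cytoskeleton genes had a median of 0.09 (-0.04) over 21, from the formin gene DIAPH3 at 0.29 (0.030) to TIAM1, an activator of the GTPase Rac, at -0.16.

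Integrins and focal adhesion genes had a median of 0.01 (-0.02) over 24, from the zyxin gene ZYX at 0.27 (0.17) to ITGA10 at -0.21 (-0.040), and extracellular matrix genes 0.01 (-0.07) over 24. In the matrix list the proteoglycan gene BGN differed by -0.32, with all 4 NME1-wild-type arrays below all 4 Parent arrays, and the fibronectin gene FN1 was highest at 0.15 (-0.024). The list of other metastasis suppressors had a median of 0.03 (-0.02) over 17, with KISS1 lowest at -0.23 (-0.10). Its highest entry was DRG1 at 0.26 (0.16). That symbol is a gene separate from NDRG1, so the entry does not stand for NDRG1, which differed by -0.13. In limma 0 of the list passed, with 0 at an unadjusted p under 0.05. Reported partner proteins of NME1 had a median of 0.05 (0.06) over 15, from HMGB2 at 0.46 to TIAM1. HMGB2 gave 8.17, 8.22, 7.60 and 8.16 on the Parent arrays and 9.02, 9.25, 7.91 and 7.82 on the NME1-wild-type arrays. Only replicates 1 and 2 of the latter lay above Parent.

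Signalling, DNA repair, cholesterol, stress, lineage and immune lists showed no changed member either. Wnt and hedgehog genes had a median of -0.04 (-0.05) over 25, from WNT5A at 0.18 (-0.050) to DKK3 at -0.23. TGF-beta targets had a median of 0.01 (-0.03) over 18. ID2, an inhibitor of helix-loop-helix factors, was the highest of these at 0.51, with all 4 arrays above Parent, and PMEPA1 the lowest at -0.18. DNA repair genes had a median of 0.04 (-0.02) over 21, from RAD23B at 0.27 to the glycosylase gene OGG1 at -0.18. Cholesterol synthesis genes had a median of -0.01 (-0.10) over 15, from PMVK at 0.13 to the lanosterol synthase gene LSS at -0.28. Unfolded protein and amino acid stress genes had a median of -0.03 (0.0083) over 20, with SLC7A11 highest and the serine synthesis gene PHGDH lowest at -0.34.

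Pigmentation genes had a median of -0.07 (0.02) over 18, from the transcription factor gene TFAP2A at 0.22 (-0.045) to the transporter gene SLC45A2 at -0.28 (-0.055). Neural crest and glial genes had a median of -0.01 (0.02) over 15, from NRN1 at 0.33 (0.22) to NGFR. Interferon response genes had a median of -0.0038 (0.06) over 23, from IFI44 at 0.43 to IRF9 at -0.14 (-0.081), and cytokines and chemokines -0.06 (0.06) over 22, from IL6 at 0.39 (0.065) to TNF at -0.22. The 9 genes of class II antigen presentation had the highest median of the 37 lists, 0.22 (0.11), or 0.16 with quantile normalization, and 7 were positive. CIITA, the regulator of class II genes, was lowest at -0.09 (0.0062), and HLA-DRA, a chain of the class II molecule, was highest at 0.44. Its Parent arrays gave 8.54, 7.87, 8.43 and 8.26 and its NME1-wild-type arrays 9.29, 9.41, 8.17 and 8.01, so replicates 1 and 2 of the latter were high and replicates 3 and 4 were not. With array weights the difference of HLA-DRA was -0.013. The 11 class I genes had a median of 0.07 (-0.02), from B2M, the light chain of class I molecules, at 0.35 to the proteasome gene PSMB10 at -0.07 (0.032).

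Markers of other cell types did not move past the threshold. The medians were -0.08 (0.08) for 5 leukocyte genes, -0.13 (0.0079) for 6 fibroblast genes, -0.11 (0.08) for 5 endothelial genes and -0.10 (0.07) for 5 keratinocyte and epithelial genes. The leukocyte genes ran from CD68 at 0.05 (0.081) to CD3E at -0.17 (0.12), the endothelial genes from KDR at 0.01 (-0.043) to CDH5 at -0.18 (-0.020) and the keratinocyte and epithelial genes from KRT18 at 0.05 (0.13) to EPCAM at -0.19 (-0.028). The values of each list were also summed before taking the log2, so the highest gene weighs most. For the leukocyte genes the log2 of the sum was 8.44 to 8.92 on the Parent arrays and 8.45 to 9.09 on the NME1-wild-type arrays. For the fibroblast genes it was 8.49 to 8.99 and 8.45 to 8.83. The endothelial sums were 7.18 to 7.73 and 7.23 to 7.32, and the keratinocyte and epithelial sums 8.87 to 9.35 and 8.79 to 9.11. The ranges overlapped in each list. The fibroblast marker DCN differed by 0.43, with all 4 NME1-wild-type arrays above the Parent arrays and COL1A1 at -0.29 (-0.16).

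**Figure D5:**
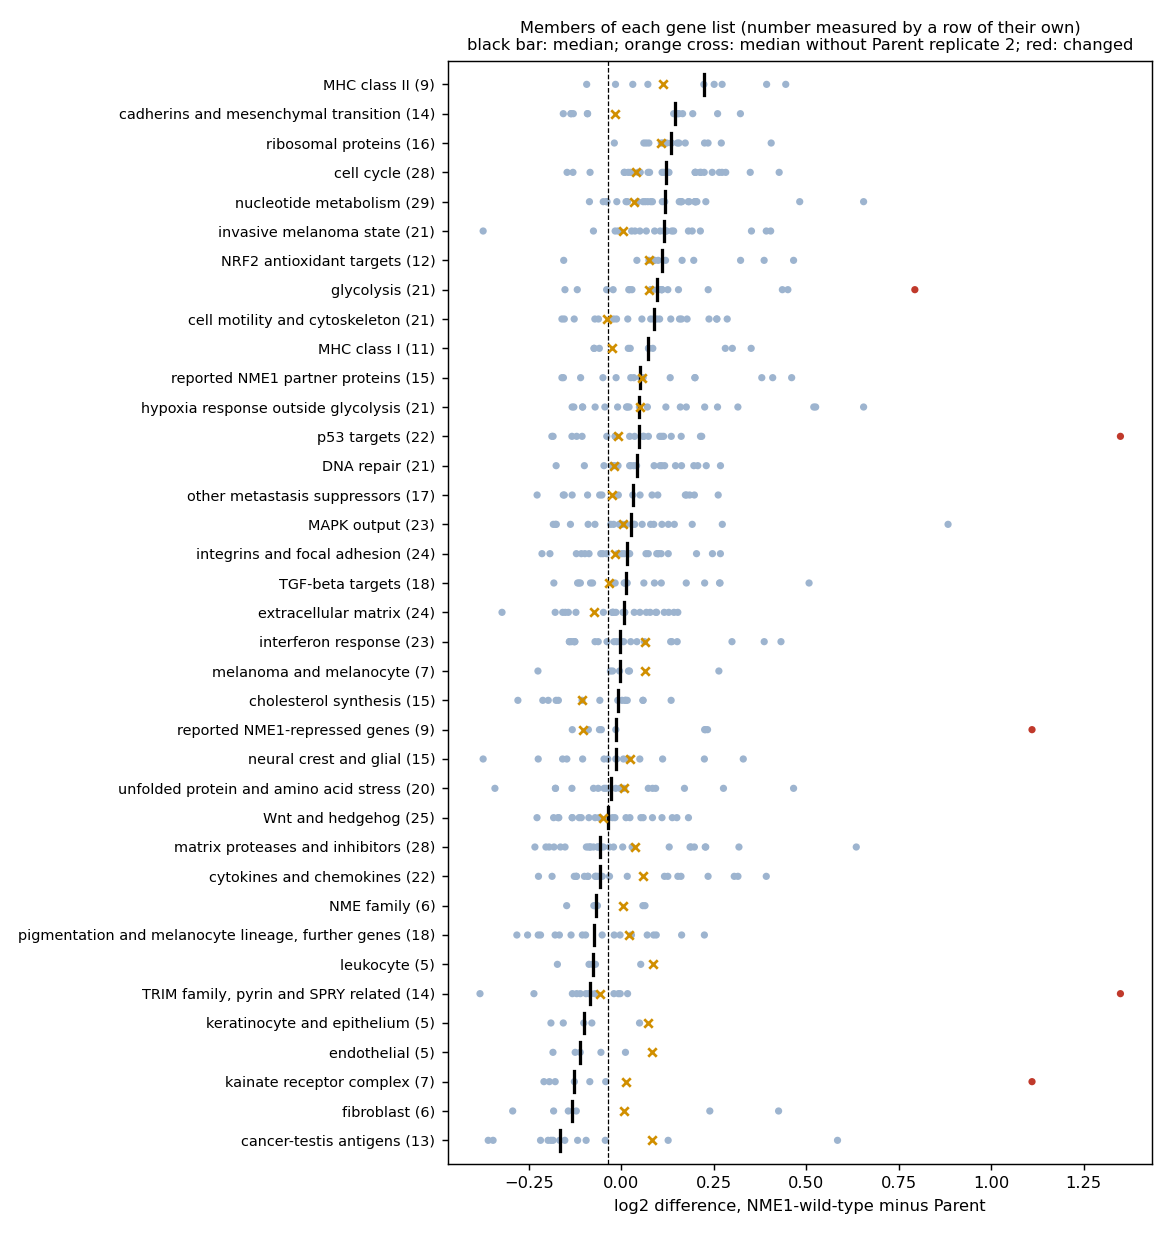
Log2 difference of NME1-wild-type from Parent (horizontal axis) for the members of each gene list (vertical axis, with the number of genes measured by a row of their own); dots are genes, red dots are changed, black bars are medians, orange crosses are medians without Parent replicate 2 and the dashed line is the median of all features. Apart from TRIML2 and NETO2, each drawn in 2 lists, the members lie within 1 log2 unit of 0, and the orange crosses lie closer together than the bars.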

How the data were processed

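Total RNA of WM793 and its NME1 lines was labelled and hybridised to Affymetrix Human Exon 1.0 ST arrays, per the labels' protocols. The authors deposited log2 expression values that were normalised with RMA, and limma is also named, per the submitters' processing notes; no version, genome build or annotation release is given in the sources used here. RMA is meant to place arrays on a common scale. The deposited arrays still differed in spread, with interquartile ranges from 2.19 (Parent replicate 2) to 3.16 (NME1-P96S replicate 2). RMA also compresses low values, so folds of weak transcripts may be understated, which was not tested.

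Of 18708 rows, 17608 were listed in the platform annotation, 14735 with 1 gene symbol and 2873 with several, and 1100 were not listed. Where a gene had several rows, that with the highest mean stood for it, which left out 324 rows and gave 18384 features, 14411 of them with a symbol. Symbols were checked against RefSeq (GRCh38.p14). A limma 3.58.1 model (R 4.3.3) with a mean for each of the 5 lines was fitted over all 20 arrays (15 residual degrees of freedom), with two-sided tests adjusted by Benjamini-Hochberg over all features. The fit was tested on simulated data. The number of arrays limits the precision.

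Arrays of equal replicate number deviated together in both lines (r = 0.105, 0.397, 0.172 and 0.387 for replicates 1 to 4), although NME1-wild-type replicates 1 and 3 correlated more with Parent replicates 2 and 4 (0.147 and 0.244). As all 4 values for equal numbers were over 0.1, the numbers, taken from the titles, were treated as pairing the arrays in an alternative fit with the replicate as a block. In all, 30 alternatives were run. The text names all changed features, up to 10 unchanged genes in each direction of at least 1.5-fold with the smallest p, the members of the NME, kainate receptor and reported NME1-repressed lists, and the changed, highest and lowest members of the other lists. Members and lists were chosen with earlier results of these data known.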

Additional observations from a re-analysis of the deposited data

Results flagged for a closer look

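In 218 groups of 4 arrays (the named features, in both lines), 11 had an array apart from the other 3 by Dixon's criterion, and chance alone gives about 1 in 20. Parent replicate 2 was that array in 4 groups, at 6.29 for XAGE1 row 3978005 (median of the other 3 arrays 5.71), at 10.1 for CCN2 (10.8), at 5.97 for MAGEA1 (5.07) and at 7.32 for NGFR (6.69). Parent replicate 4 was apart for TAS2R20, at 4.23 (5.72), and Parent replicate 3 for HMGB2, at 7.60 (8.17). NME1-wild-type replicate 1 was apart for OR51I2 at 4.56 (4.01), BGN at 7.95 (8.16) and DCN at 5.03 (4.47). NME1-wild-type replicate 4 was apart for OR3A2 at 4.53 (4.36) and GRIK3 at 5.14 (5.36).

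Among the 6 changed features, in 15 cases the difference of NME1-wild-type from Parent exceeded that of a mutant line past the threshold in limma. As the Parent arrays cancel out, these are the direct comparisons with the mutants given above and not further tests. The features were chosen for being higher on the same NME1-wild-type arrays. For TRIML2 the excess was 1.09 over NME1-E5A, 1.18 over NME1-K12Q and 1.91 over NME1-P96S, and for NETO2 it was 2.22, 1.01 and 1.21. For ALDOC it was 1.05 over NME1-K12Q. For XAGE1 row 4008802 it was 1.11, 0.99 and 1.56 over NME1-E5A, NME1-K12Q and NME1-P96S, for row 4008819 1.12, 1.05 and 1.75, and for row 3978005 1.14 over NME1-E5A and 1.74 over NME1-P96S. Each line is a single line, and what sets the lines apart was not tested.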

How the results depend on the processing

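The count of 6 changed features became 1 with only the 8 arrays, 9 with quantile normalization, 10 with median centring, 10 with the interquartile range of each array as a covariate, 11 with array weights, 11 without the 3 narrowest arrays and 0 with limma's treat against 1.5-fold, which tests against that fold rather than against 0. Leaving out 1 array gave 4 to 10, with 10 without Parent replicate 2 or NME1-P96S replicate 3, and 0 features were lower in every setting run. With the replicate number as a block the count was also 6, of which 5 were shared, with MMP3 gained and XAGE1 row 3978005 lost, and the pairing changed no other call. The row of NME1 differed by 0.19 in the exact permutation test with quantile normalization (p = 0.0857), by 0.28 with sign flips over the replicate block (exact p = 0.125) and by 0.23 to 0.36 without 1 array.

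Signs turned for the genes below, and the cause was not tested. Not all were near 0 in the main fit, with HLA-DRA at 0.44, ADAMTS1 at -0.23, PTN at 0.23 and TFAP2A at 0.22. Without the 3 narrowest arrays the differences were 0.019 for NME3, -0.038 for NME6, 0.067 for NME8, 0.072 for GRIK4, 0.16 for GRIK5, 0.014 for NETO1, -0.045 for TFAP2A, -0.024 for FN1, 0.011 for BBC3, -0.050 for WNT5A, 0.0062 for CIITA, 0.032 for PSMB10, 0.060 for OSGIN1, 0.044 for RPL13, 0.12 for CD3E, -0.043 for KDR and 0.016 for TRIML1. With array weights they were -0.072 for NME4, 0.0090 for TIAM1, 0.0055 for FZD1, 0.011 for L1CAM, -0.023 for PTN, 0.064 for MMP2, 0.035 for PFKM, 0.0014 for NDRG1, 0.017 for ADAMTS1, 0.0048 for PMEPA1, -0.013 for HLA-DRA, 0.043 for RPL13 and -0.085 for CD68. With quantile normalization they were -0.016 for NME4, 0.012 for NME5, 0.026 for NME8, 0.043 for GRIK2, -0.016 for CD68, -0.016 for KRT18 and 0.014 for TRIML1. With median centring they were 0.0073 for L1CAM and 0.0033 for RPL13, and with the interquartile range covariate 0.075 for GRIK5, 0.0066 for RPL13 and -0.014 for KDR.

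Leaving out 1 array gave -0.13 to 0.019 for NME3, -0.040 to 0.13 for NME4, -0.17 to 0.015 for NME5, -0.038 to 0.23 for NME6, -0.21 to 0.067 for NME8, -0.15 to 0.062 for FZD1, -0.10 to 0.11 for L1CAM, -0.19 to 0.014 for MMP2, -0.22 to 0.10 for GRIK2, -0.37 to 0.072 for GRIK4, -0.24 to 0.16 for GRIK5, -0.21 to 0.014 for NETO1, -0.045 to 0.39 for TFAP2A, -0.024 to 0.31 for FN1, -0.39 to 0.011 for BBC3, -0.050 to 0.39 for WNT5A, -0.18 to 0.0062 for CIITA, -0.24 to 0.051 for PSMB10, -0.31 to 0.060 for OSGIN1, -0.058 to 0.044 for RPL13, -0.10 to 0.15 for CD68, -0.31 to 0.12 for CD3E, -0.043 to 0.085 for KDR and -0.25 to 0.016 for TRIML1. Over all settings and named features, 83 differences turned sign, 3103 kept their direction and their side of the threshold, 30 newly passed and 28 no longer did. Low signal limits the lower features, and background signals were not used here.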

Other observations

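Beyond the genes named by rule, some genes with arrays that did not overlap were singled out after their values were seen. LGALS3BP, a secreted glycoprotein that binds galectins, gave 8.92, 9.09, 9.11 and 9.10 on the Parent arrays and 8.46, 8.47, 8.78 and 8.90 on the NME1-wild-type arrays, a difference of -0.40. LGR6, a receptor for R-spondins, differed by -0.42 and the p21-activated kinase gene PAK6 by -0.44, with all 4 NME1-wild-type arrays below the Parent arrays. On the higher side MYL12B, a regulatory light chain of myosin, differed by 0.35 and RNF128, a ubiquitin ligase, by 0.35. The row of HLA-B and HLA-C (row 2948926) averaged 10.2 ± 0.223 on the 4 Parent arrays (SD) and 10.6 ± 0.0312 on those of NME1-wild-type. In limma none of these 6 passed (adjusted p = 0.997 for each).

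The largest decrease over all features was in row 2363074, which the annotation does not list, at -1.35 with overlapping arrays. Row 3029317, annotated to 5 CTAGE genes, differed by -0.98 with all 4 NME1-wild-type arrays below the Parent arrays.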
